A study of Mus musculus with 34 samples.

Results

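Seminiferous tubules of stages IX-XII from mouse testes given a lentivirus that encodes dnRARa, a retinoic acid receptor alpha made dominant negative, were compared with tubules of the same stages from testes injected with a lentivirus for the fluorescent protein Venus. The comparison rests on 4 of the 34 arrays of the series, 2 for dnRARa and 2 for Venus, chosen by their titles. All mice were C57BL6/j of 6 to 8 weeks, and the virus was given to adult testes 5 days before dissection. The labels do not state the promoter of the virus, which cells it infected or what share of them, or whether the 2 replicates of a group came from separate mice. The design text calls them biological duplicates. The p-values of this comparison rest on the spread between such duplicates, pooled for each gene over all tubule groups of the series. Both groups were compared with the same arms in stages I-III, IV-VI and VII-VIII (titles write VI-VIII for the latter), with untreated tubules of the same 4 stage groups, with Sertoli cells cultured for 24 hours with vehicle or retinoic acid (RA, at 1 mM per the labels, a unit that could not be checked), and with whole testes and with sorted Sertoli cells of Nanos3-knockout (N3KO) testes. Each of these groups also had 2 arrays.

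Sertoli cells, somatic cells that line the tubule, nurse the germ cells, and their gene expression cycles with the stages of the seminiferous epithelium. RA is made and degraded in the tubule in waves, with signalling low in the early stages and high from about the stages in which preleptotene cells enter meiosis and sperm are released. RA binds the nuclear receptors RARA, RARB and RARG, which pair with RXR on DNA response elements made of 2 copies of the half-site AGGTCA or close variants. A dominant negative receptor occupies such elements without activating the gene. The question the arrays address is whether blocking the receptor makes tubules of stages IX-XII look like tubules of the earlier stages.

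Values are log2 signals minus the 75th percentile of the array, so that 1 unit is a 2-fold difference, and every difference is dnRARa minus Venus with its standard error (SE) from limma, a linear model fitted over all genes with adjusted p-values over all of them. The 4 arrays had 68.93% to 74.4% of spots well above background. The dnRARa replicates correlated across genes at r = 0.995 and the Venus replicates at r = 0.997. All 22 measured Sertoli markers were well above background on all 4 arrays, as were 18 of 19 spermatocyte, 18 of 18 round spermatid and 15 of 15 elongating spermatid markers. The arrays of a replicate number were scanned on 1 day, but each arm had a slide of its own on that day, so arm and slide cannot be told apart in the difference between arms. All 4 stage groups of an arm and replicate number shared a slide, so a difference between stages within an arm does not mix slides. The 2 untreated arrays of IX-XII shared a slide with those of VII-VIII, while I-III and IV-VI each had a slide of their own on the same day. In whole tubules, fewer cells of a type and less RNA per cell cannot be told apart.

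Rara itself, the gene from which the construct derives, was measured first. Its probe read -3.997 and -4.19 on the dnRARa arrays and -5.03 and -4.79 on the Venus arrays. Both dnRARa arrays were higher and the groups did not overlap. The difference of 0.82 (SE 0.30) did not pass the threshold (limma adjusted p = 0.150), and it turned to -0.22 with normexp background correction. The part of the transcript that this probe reads, and whether the viral transcript holds it, are not given in the sources used here.

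Of 23096 genes tested, 1083 (4.69%) passed an adjusted p of 0.05, 730 higher with dnRARa (3.16%) and 353 lower (1.53%). The difference had the same sign in both replicate pairs for 16860 of 23075 genes measured in both pairs (73.1%). All 1083 genes that passed had the same sign in both pairs and groups that did not overlap, a pattern that 63.1% of all genes with both pairs measured also had. Of the genes that passed, 389 of those higher and 137 of those lower differed by at least 2-fold. The median difference was 1.09 over all 730 higher genes, -0.91 over all 353 lower genes and 0.048 over all genes tested. For 73 of the higher genes neither Venus array was well above background, and for 5 of the lower genes neither dnRARa array was. The split of 67.4% higher became 51.3% with normexp correction, which moved the median of all genes to -0.204 and the count to 265. The count was 316 without Venus replicate 1, 346 without Venus replicate 2, 624 without dnRARa replicate 1 and 385 without dnRARa replicate 2. Of 76 named genes that passed, 27 kept the call under all 16 other settings tried, 38 lost it without 1 of the 4 arrays and 34 with normexp correction.

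Aqp8, a water channel, rose the most among genes with a symbol. It read 4.08 and 4.28 on the dnRARa arrays and -2.61 and -1.72 on the Venus arrays. The 2 groups lay far apart, with a difference of 6.34 (SE 0.31, 81.2-fold, adjusted p = 6.58e-08). In the Venus arm Aqp8 was at 4.73 in stages I-III, 5.18 in IV-VI and 3.46 in VII-VIII, so the low value was that of IX-XII. With dnRARa, IX-XII differed by -0.78 from Venus I-VI (SE 0.27, adjusted p = 0.0318). The comparisons with Venus I-VI given here and below share the dnRARa arrays of IX-XII with the main difference, so the 2 values are set side by side only. In untreated tubules Aqp8 was also lower in IX-XII (1.85) than in I-III (3.77) and IV-VI (4.71), although by less than in the Venus arm.

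Mical2, a flavoenzyme that acts on actin filaments, followed the same course. Its values were -0.76 and -0.78 with dnRARa and -6.21 and -5.51 with Venus, a difference of 5.09 (SE 0.31, adjusted p = 9.21e-07). The dnRARa arrays of IX-XII differed by 0.23 (SE 0.27, adjusted p = 0.522) from Venus I-VI, where the gene read -0.95 in I-III and -1.06 in IV-VI. The phosphatase gene Ptpn7 read -1.30 and -1.37 with dnRARa against -5.71 and -4.81 with Venus (difference 3.93, SE 0.46, adjusted p = 0.000173), and its second probe gave 1.38. Ptpn7 had fallen in Venus tubules already in VII-VIII (-4.97), where dnRARa made a difference of only 0.27 (adjusted p = 0.887), and untreated IX-XII tubules read -3.13.

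Arhgap31, an inactivator of the small GTPases Cdc42 and Rac1, read -0.62 and -0.93 with dnRARa and -3.17 and -2.90 with Venus (2.26, SE 0.17, adjusted p = 5.17e-06). Dpysl4, of the dihydropyrimidinase-like family known from growing axons, read 0.99 and 0.73 against -1.56 and -1.35 (2.32, SE 0.19). Both genes were lower in IX-XII than in I-VI in untreated tubules, by 1.54 and 1.57 (adjusted p = 1.91e-06 and 3.56e-06). They were picked for passing in that direction, so this match was set by the choice. In IX-XII of the dnRARa arm, Arhgap31 differed by -0.28 from Venus I-VI (adjusted p = 0.150), while Dpysl4 differed by -0.77 (adjusted p = 0.00161).

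The glutathione transferase genes Gsta2 and Gsta1 rose by 3.74 (SE 0.40) and 3.35 (SE 0.33). Gsta2 read 0.87 and 0.90 with dnRARa and -3.16 and -2.55 with Venus, and the differences from Venus I-VI were -0.12 for Gsta2 and -0.41 for Gsta1 (adjusted p = 0.816 and 0.276). Their near-identical sequences mean that a probe of 1 may read the other. The same holds for Nudt11 (2.13, SE 0.17) and Nudt10, which encode inositol pyrophosphate hydrolases, and for Ssxb2 (2.98, SE 0.31) and Ssxb1 (2.83, SE 0.27). Ssxb1 read 0.91 and 0.93 with dnRARa and -2.16 and -1.66 with Venus. It did not regain the level of Venus I-III (3.43) or IV-VI (2.98), and its dnRARa level in IX-XII was near that of untreated tubules of the same stages (0.50).

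Genes that were at background in Venus tubules of IX-XII are given as lower bounds. Elovl3, an elongase of long fatty acids, was at least 7.44-fold higher with dnRARa, Fam110c at least 5.54-fold and Nudt10 at least 5.45-fold. Fabp1, a fatty acid carrier, was at least 4.66-fold higher, and Slc35f4 at least 4.10-fold. Ntf3, the neurotrophin-3 gene, was at least 2.38-fold higher. Slc16a4, of the monocarboxylate transporter family, was above background on 1 Venus array and rose by 3.01 (SE 0.28). Normexp correction ended the calls of Elovl3, Fam110c, Slc16a4, Nudt10, Fabp1, Ntf3 and Slc35f4, with a negative difference for Nudt10, Fabp1, Ntf3 and Slc35f4. Ntf3 did not pass without Venus 1 or dnRARa 1 (adjusted p = 0.0814 to 0.108), nor Slc35f4 without Venus 2, dnRARa 1 or dnRARa 2 (0.0693 to 0.155).

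**Figure D1:**
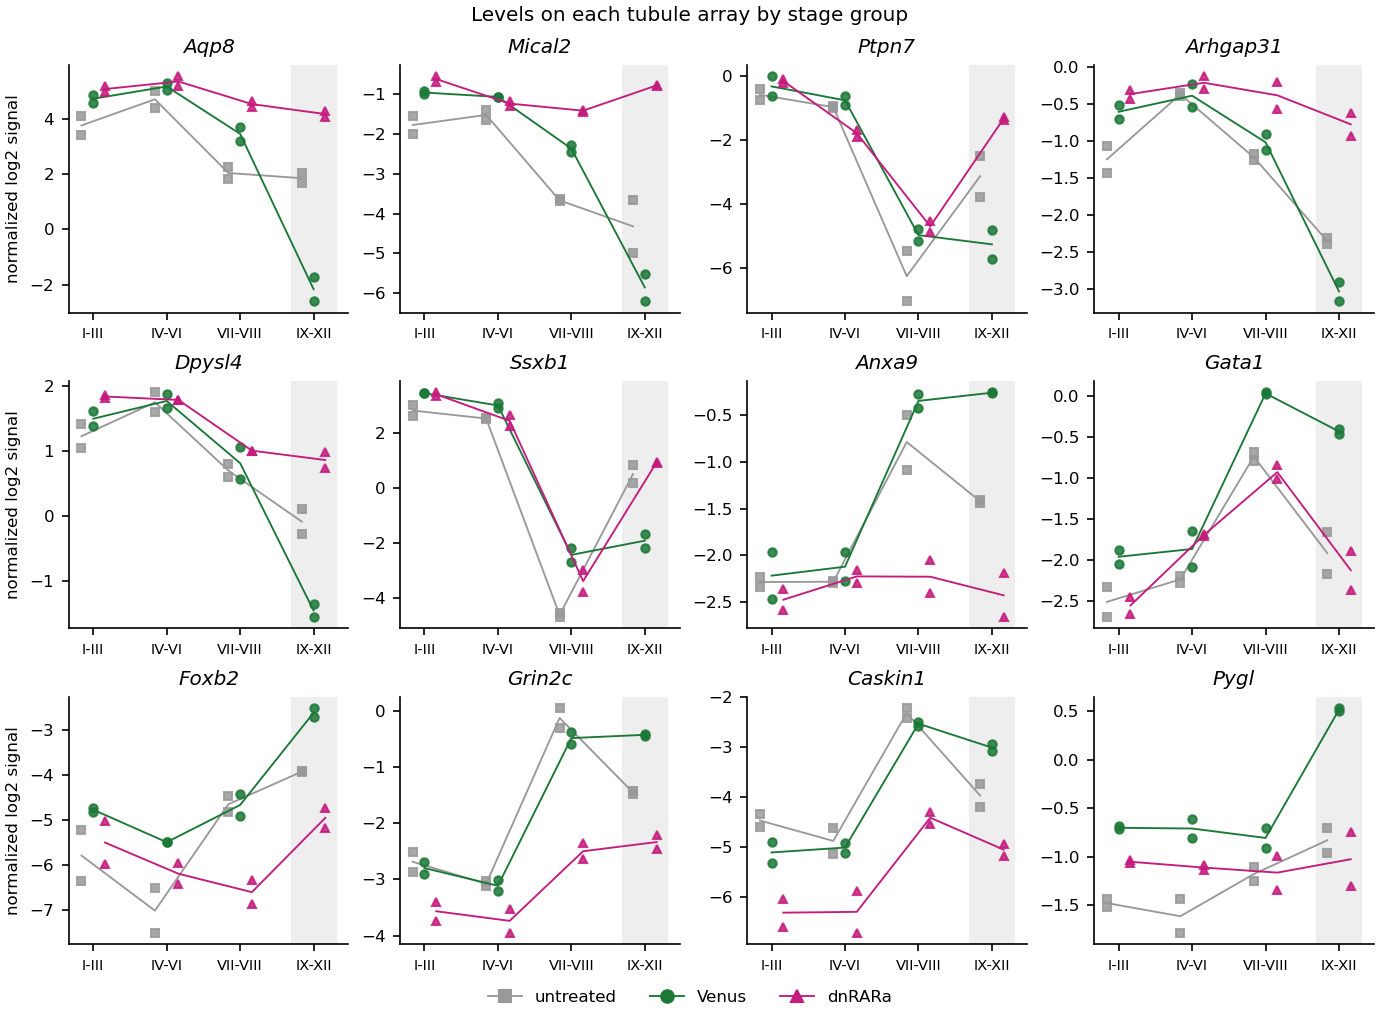
Normalized log2 signal (vertical axis) of 12 genes on each tubule array by stage group (horizontal axis), with squares for untreated, circles for Venus and triangles for dnRARa, a line through the means of 2 arrays, and IX-XII shaded. Aqp8, Mical2, Ptpn7, Arhgap31, Dpysl4 and Ssxb1 stood higher with dnRARa than with Venus in IX-XII, and Anxa9, Gata1, Foxb2, Grin2c, Caskin1 and Pygl lower, with no overlap between the arrays of the arms in either set.

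The largest falls were smaller than the largest rises. Anxa9, an annexin, read -2.66 and -2.19 with dnRARa and -0.27 and -0.26 with Venus (-2.16, SE 0.21, adjusted p = 5.65e-05). Its Venus level rose from -2.22 in I-III and -2.12 in IV-VI to -0.35 in VII-VIII, and with dnRARa it was low in all 4 stage groups. Osbpl5, a lipid transfer protein of the oxysterol-binding family, read -0.93 and -0.45 against 1.34 and 1.40 (-2.06, SE 0.22), and the forkhead gene Foxb2 read -5.18 and -4.74 against -2.72 and -2.52 (-2.34, SE 0.39). Anxa9 and Foxb2 differed by -0.26 and 0.18 from Venus I-VI (adjusted p = 0.287 and 0.705), and Osbpl5 by 0.60 (adjusted p = 0.0206).

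The NMDA receptor subunit gene Grin2c read -2.46 and -2.21 with dnRARa and -0.44 and -0.42 with Venus (-1.91, SE 0.19). The synaptic scaffold gene Caskin1 differed by -2.05 (SE 0.27), the tetraspanin gene Tspan12 by -2.14 (SE 0.28), the Tec-family kinase gene Txk by -2.05 (SE 0.31), and the receptor phosphatase gene Ptprd by -1.57 (SE 0.18). Pygl, the liver form of glycogen phosphorylase, read -1.31 and -0.75 against 0.50 and 0.53 (-1.54, SE 0.18, adjusted p = 0.000163). In these 6 genes both dnRARa arrays lay below both Venus arrays, and in each the untreated I-VI level was lower than that of IX-XII, with differences of -0.71 to -2.36. Grin2c, Ptprd and Pygl were picked for passing in that untreated direction, so for them this match was set by the choice.

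Stbd1, which tethers glycogen, read -4.17 and -3.34 with dnRARa and -0.46 and -0.69 with Venus (-3.18, SE 0.58, adjusted p = 0.00521). The call was lost without Venus 1 or dnRARa 1 (adjusted p = 0.0573 to 0.0631). Esyt3, a tether between membranes (-2.16, SE 0.40), did not pass without Venus 1, Venus 2 or dnRARa 1 (0.0521 to 0.0653), and the dystrophin-related Drp2 (-2.13, SE 0.41) without the same arrays (0.0564 to 0.0801). Ahsg, the fetuin-A gene (-1.95, SE 0.39), did not pass without Venus 2 or dnRARa 1 (0.0814 to 0.126). Plekhs1 was at least 2.71-fold lower, but its second probe read a difference of 0.0016, and the call was lost without Venus 2 or dnRARa 1 (0.0597 to 0.0828). Olfr340, an olfactory receptor gene, stood apart in another way. It read -3.22 and -2.91 on the Venus arrays of IX-XII and -6.54 and -7.13 with dnRARa (-3.77, SE 0.58), and it was not well above background on any untreated array.

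The stage direction of the genes was read from the untreated tubules. Their arrays enter neither mean in the comparison of dnRARa with Venus, but they share in the estimate of each gene's spread, so the calls of the 2 comparisons are not independent. With the 16 virus arrays alone, 2138 genes passed in place of 1083. In the untreated tubules, stages I-VI were higher than IX-XII for 22.6% of genes tested and lower for 28.0%. Of the 660 genes higher with dnRARa that were tested there, 382 (57.9%) were higher in I-VI and 56 (8.48%) lower. Of the 328 genes lower with dnRARa, 192 (58.5%) were lower in I-VI and 51 (15.5%) higher. Over the genes tested in both comparisons these shares were 22.0% and 28.3%. Read the other way, 9.29% of the 4114 genes that were higher in untreated I-VI rose with dnRARa and 1.24% fell, and of the 5285 that were lower there 1.06% rose and 3.63% fell. The matching genes numbered 142, 185, 231 and 147 for the rises and 55, 54, 62 and 99 for the falls without Venus 1, Venus 2, dnRARa 1 and dnRARa 2 in turn. The untreated groups of I-VI and IX-XII lay on different slides, so stage and slide cannot be told apart in that difference.

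**Figure D2:**
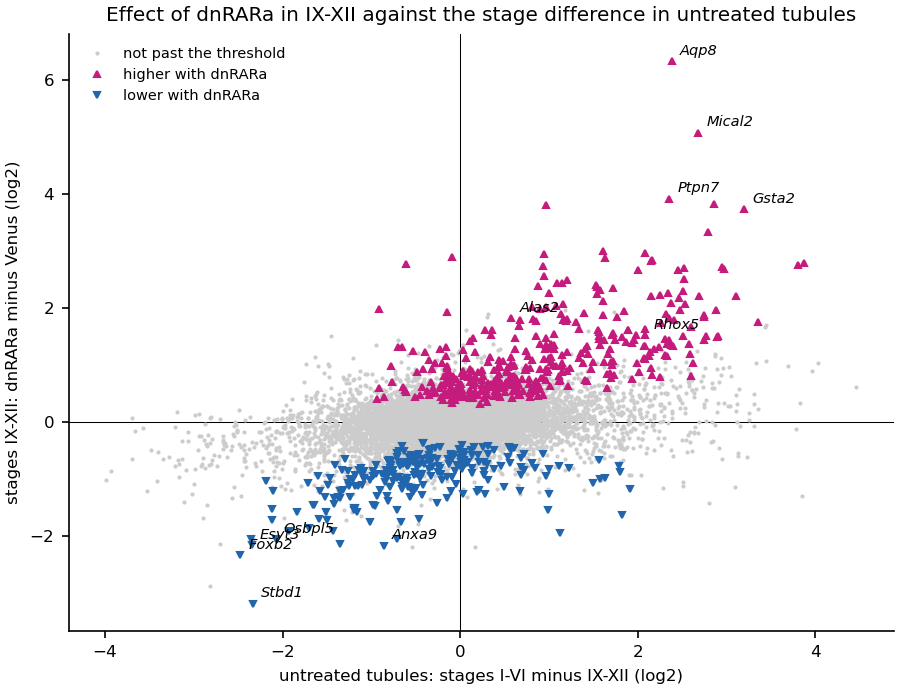
Difference between dnRARa and Venus in IX-XII (vertical axis, log2) against the difference between I-VI and IX-XII in untreated tubules (horizontal axis, log2), 1 point per gene with a symbol. Genes higher with dnRARa (upward triangles) lie mostly to the right of 0 and genes lower (downward triangles) mostly to the left. Counting also the genes without a symbol, which are not drawn, 57.9% and 58.5% of those tested were past the threshold on that side.

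The stage of the highest untreated level differed between the 2 sets. Of 728 genes higher with dnRARa, 199 had it in I-III, 318 in IV-VI, 86 in VII-VIII and 125 in IX-XII. Of 351 genes lower with dnRARa, 12 had it in I-III, 14 in IV-VI, 205 in VII-VIII and 120 in IX-XII. In the lower set VII-VIII held 58.4%, against 30.1% of all genes, and IX-XII 34.2%, against 34.7% of all genes. Gata1, Grin2c and Caskin1 are examples of genes highest in VII-VIII, with untreated levels of -0.74, -0.13 and -2.31 in VII-VIII and -1.91, -1.46 and -3.97 in IX-XII.

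**Figure D3:**
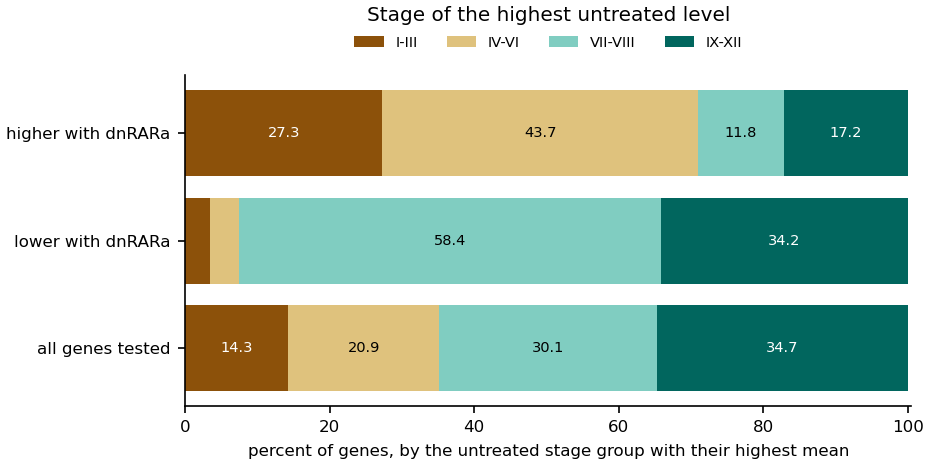
Share of genes (horizontal axis, percent) whose highest untreated mean lay in each stage group, for genes higher with dnRARa, genes lower with dnRARa and all genes tested. Stages I-III and IV-VI together held 71.0% of the genes that rose and 7.41% of those that fell, against 35.2% of all genes.

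Sertoli-enriched genes made up 68.7% of the genes that fell and 39.3% of those that rose, as judged by the difference of N3KO Sertoli cells, which come from testes without germ cells, from whole testes. The median difference in that comparison was 1.65 for genes lower with dnRARa, -0.27 for genes higher and 0.021 for all genes, and 43.5% of all genes passed as higher and 40.3% as lower. Among 335 genes at least 2-fold higher in untreated I-VI than IX-XII and at least 2-fold higher in N3KO Sertoli cells than in whole testes, 70 (20.9%) rose with dnRARa and 0 fell in the limma test (4 at an unadjusted p under 0.05), with a median difference of 0.32. Among 252 genes that were 2-fold higher in IX-XII and in Sertoli cells, 0 rose in limma (6 at an unadjusted p under 0.05) and 55 (21.8%) fell, with a median of -0.37. Of the genes at least 2-fold lower in Sertoli cells than in testes, 920 were higher in untreated I-VI and 875 in IX-XII. In the former 144 (15.7%) rose and 18 fell, with a median of 0.23, and in the latter 5 rose and 10 (1.14%) fell, with a median of -0.15. Lower in N3KO Sertoli cells does not mean absent from Sertoli cells. The Sertoli marker Aqp8 read -0.44 and 1.78 in N3KO Sertoli cells and 3.545 and 3.616 in whole testes. Rhox5, another Sertoli marker, read -1.20 and -0.067 against 2.72 and 2.78.

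The effect of dnRARa in IX-XII was then set against its effect in the other stage groups. It differed from the mean effect in I-III and IV-VI for 458 of 23734 genes (1.93%), 277 with a higher and 181 with a lower difference in IX-XII, and from the effect in VII-VIII for 71 of 23805 (0.298%), 65 higher and 6 lower (0.0252%). The former count was 96 without Venus 1, 113 without Venus 2, 164 without dnRARa 1, 118 without dnRARa 2 and 211 without replicate 2 of dnRARa in IV-VI, which had the fewest spots above background of the virus arrays (60.58%). The latter was 23, 50, 32 and 49 without the 4 arrays of IX-XII in that order. Aqp8, Mical2, Slc16a4, Ssxb1, Ssxb2, Dpysl4 and Arhgap31 were among the named genes that passed both tests, with effects in IX-XII that exceeded those in VII-VIII by 1.62 to 5.26. The 2 tests parted for Anxa9. Its effect in IX-XII differed by -1.98 from its effect in I-VI (adjusted p = 0.00166) but by -0.29 from that in VII-VIII (adjusted p = 1.00), since it was already lower there by -1.88 (SE 0.21).

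In VII-VIII 355 of 23108 genes passed between dnRARa and Venus, 171 higher (0.740%) and 184 lower (0.796%). Of the genes higher in IX-XII 100 were also higher in VII-VIII (13.7% of the former list and 58.5% of the latter), and of the genes lower in IX-XII 98 were also lower (27.8% and 53.3%). A single gene was higher in IX-XII and lower in VII-VIII, and 0 the other way in limma, whose unadjusted p was under 0.05 for 4114 genes in IX-XII. Grin2c fell by 2.01 in VII-VIII and 1.91 in IX-XII, Caskin1 by 1.89 and 2.05, and Capn6, a calpain family member, by 1.55 and 1.39. In IV-VI 747 of 22391 genes passed (3.34%), 343 as higher (1.53%) and 404 as lower (1.80%), of which 72 and 54 had the same direction in IX-XII and 17 and 11 the opposite. In I-III limma called 2 genes (0.00896%), both higher. Each arm had its own slides, and these were the same in all stage groups, so the overlap between stage groups and a slide difference cannot be told apart.

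Among genes known for RA signalling, Cyp26a1, Stra8, Rarb and Dhrs3 did not pass the threshold, while Tgm2 and Rec8, given below, did. Cyp26a1, whose enzyme degrades RA and which RA induces, read -3.48 and -3.16 with dnRARa and -1.08 and -1.28 with Venus, with no overlap. Its difference of -2.14 (SE 0.72) did not pass (adjusted p = 0.120), and neither did its effect in VII-VIII, -1.94 (adjusted p = 0.256). In cultured Sertoli cells Cyp26a1 was not well above background on either vehicle array and was at least 664-fold higher with RA. Stra8, which germ cells need to enter meiosis, read 3.40 and 3.59 against 3.29 and 3.35 (0.17, SE 0.44, adjusted p = 0.895), although RA raised it by 3.92 in culture. Vehicle cultures already held Stra8 signal (-0.021 and -0.041), while sorted N3KO Sertoli cells were not well above background (-5.80 and -5.695). Whether the cultures held germ cells was not tested. Rarb, an RA-induced receptor gene, was above background on 1 Venus array and differed by 0.73 (SE 0.40, adjusted p = 0.375), a value that turned to -0.71 with normexp. The retinaldehyde reductase gene Dhrs3 differed by -0.36 (SE 0.28, adjusted p = 0.559).

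Over 12 tested RA targets the median difference was -0.20, against 0.048 for all genes. The transglutaminase gene Tgm2 read 0.77 and 0.72 with dnRARa and 1.57 and 1.54 with Venus, with no overlap, and differed by -0.81 (SE 0.22, adjusted p = 0.0474). Rec8, a cohesin of meiosis, rose by 0.79 (SE 0.20, adjusted p = 0.0382). Tgm2 lost the call without any 1 of the 4 arrays (0.137 to 0.263) and with the scan day or the slide as a block, and Rec8 without Venus 1, Venus 2 or dnRARa 2 (0.175 to 0.377) and with quantile, median or 4-array settings. Of 16 genes of retinoid metabolism and receptors limma called 0 (5 at an unadjusted p under 0.05, 2 higher and 3 lower), against 4.69% of all genes. The smallest adjusted p was that of the RA-synthesizing enzyme gene Aldh1a3, at -1.06 (SE 0.33, adjusted p = 0.0861). The retinol dehydrogenase gene Rdh10 differed by -0.85 (SE 0.37, adjusted p = 0.246).

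The response to RA in cultured Sertoli cells was read from separate arrays, on which 5.47% of genes passed, with 3.55% raised by RA and 1.92% lowered. Of the 353 genes lower with dnRARa, 84 were raised by RA (23.8% of that list and 11.8% of the genes RA raised) and 1 was lowered. Of the 730 genes higher with dnRARa, 42 were lowered by RA (5.75% and 10.9%) and 19 were raised. Over the genes tested in both comparisons, RA raised 26.1% of the lower set and 3.51% of all genes. The number of genes lower with dnRARa and raised by RA was 31 without Venus 1, 28 without Venus 2, 26 without dnRARa 1 and 56 without dnRARa 2. Gata1, a transcription factor of Sertoli cells, is the clearest case among the named genes. It read -2.36 and -1.88 with dnRARa and -0.46 and -0.40 with Venus (-1.69, SE 0.20, adjusted p = 0.000173), RA raised it by 3.15 in culture, and dnRARa IX-XII differed by -0.21 from Venus I-VI (adjusted p = 0.345). Untreated IX-XII tubules read -1.91, near the dnRARa level. Ptprd, Anxa9, Capn6, the septin gene Septin6 and the peroxisomal gene Pex26 also fell here and rose with RA, by 0.51 to 2.83 in culture. Gsta2, Gsta1, Arhgap31, Maged2, the kinase gene Ptk2b and the cysteine dioxygenase gene Cdo1 rose here and fell with RA, with responses of -0.64 to -1.35. Named genes of smallest p were picked for passing in both comparisons with opposite signs, so their opposition was set by the choice.

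**Figure D4:**
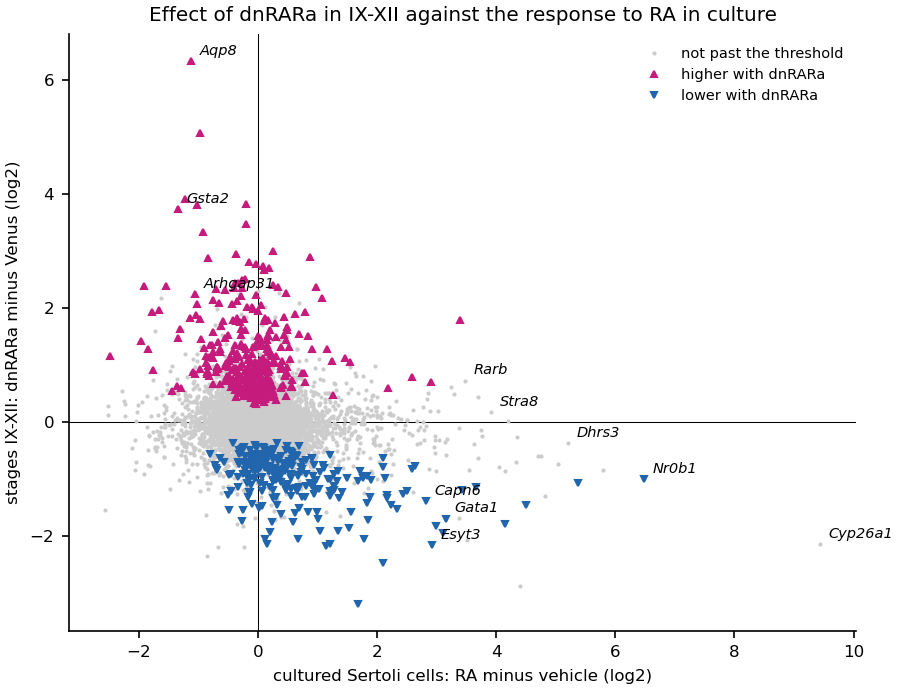
Difference between dnRARa and Venus in IX-XII (vertical axis, log2) against the response of cultured Sertoli cells to RA (horizontal axis, log2), 1 point per gene with a symbol tested in both. Nr0b1 and Gata1 fell with dnRARa and rose with RA, while Cyp26a1, Rarb, Stra8 and Dhrs3 rose with RA and did not pass with dnRARa. Cyp26a1 is drawn at its fitted value, which rests on vehicle arrays at background.

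Nr0b1, a nuclear receptor that represses steroidogenic genes, was chosen after its values were seen, as the gene lower with dnRARa that rose most with RA. It read 0.28 and 0.98 with dnRARa and 1.64 and 1.62 with Venus (-0.997, SE 0.24, adjusted p = 0.0302), and RA raised it by 6.48. It did not pass without Venus 1, Venus 2 or dnRARa 1 (0.162 to 0.232). Promoters, taken as the 250 bases before the RefSeq start of a gene in GRCm38.p6, were searched on both strands for the half-site AGGTCA and for DR5, the direct repeat of 2 variant half-sites separated by 5 bases that RAR and RXR are known to bind. A gene was counted when any of its promoters held the match. The half-site was found for 15.5% of 330 genes higher with dnRARa, 15.2% of 204 genes lower and 3 of 50 genes (6.00%) lower and raised by RA. It was found for 14.2% of all 11099 tested genes with a promoter, and in 14.0% of all 32851 promoters counted singly. DR5 overlaps the half-site search only where a half-site is exactly AGGTCA. This repeat was in 29 of all promoters (0.0883%), was found for 5 of the 11099 tested genes (0.045%) and for 0 of the genes that passed. Among the named genes Rarb and Cyp26a1 held it. Their promoters are shown because both are known RA targets that did not pass here, and that of Nr0b1 because it fell here and rose with RA. Capitals mark the repeat in Rarb (chr14:16575477-16575726, minus strand, its first base 53 bases before the start) and Cyp26a1 (chr19:37697558-37697807, plus strand, with the repeat on the opposite strand and its first printed base 32 bases before the start), and the half-site in Nr0b1 (chrX:86191525-86191774, plus strand, first base 126 bases before the start).
Rarb: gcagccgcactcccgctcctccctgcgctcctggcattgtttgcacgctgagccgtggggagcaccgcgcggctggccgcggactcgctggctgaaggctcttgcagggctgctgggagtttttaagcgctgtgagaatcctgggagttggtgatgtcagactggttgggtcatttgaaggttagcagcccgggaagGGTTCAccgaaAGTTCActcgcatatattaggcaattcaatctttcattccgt
Cyp26a1: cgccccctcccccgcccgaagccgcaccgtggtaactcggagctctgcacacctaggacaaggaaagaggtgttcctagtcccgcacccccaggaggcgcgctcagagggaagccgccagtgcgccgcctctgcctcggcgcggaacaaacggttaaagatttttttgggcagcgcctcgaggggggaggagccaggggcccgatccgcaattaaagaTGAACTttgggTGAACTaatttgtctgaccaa
Nr0b1: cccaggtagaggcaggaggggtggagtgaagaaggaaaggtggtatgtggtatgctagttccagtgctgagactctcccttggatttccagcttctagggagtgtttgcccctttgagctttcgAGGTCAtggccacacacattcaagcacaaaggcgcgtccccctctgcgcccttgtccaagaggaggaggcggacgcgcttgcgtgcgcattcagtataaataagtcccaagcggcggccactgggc
A match is a description of the letters and no site of binding was measured.

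Sertoli identity genes moved in both directions. Of 22 Sertoli markers 4 rose and 3 fell, with a median of -0.095. For this list and those below, the shares over all genes tested were 3.16% higher and 1.53% lower. The summed level of the Sertoli markers, the log2 of the added signals, was higher with dnRARa and did not overlap, at 7.45 and 7.76 against 7.12 and 7.15. This sum includes Aqp8 and Rhox5, which rose by 6.34 and 1.53, whereas 12 of the markers were below 0 and 10 above. Its part in the other results was not tested. Sox9, the transcription factor that sets Sertoli fate, read -0.23 and -0.24 against -0.10 and -0.07 (-0.15, SE 0.21, adjusted p = 0.793), and Cldn11, the main tight junction claudin of Sertoli cells, differed by 0.11 (SE 0.13, adjusted p = 0.712). Rhox5, an androgen-regulated homeobox gene, read 3.92 and 4.0 with dnRARa and 2.44 and 2.44 with Venus (1.53, SE 0.17, adjusted p = 0.000108). In untreated tubules Rhox5 was at 4.22 in IV-VI and 1.31 in IX-XII, and its dnRARa level in IX-XII differed by -0.27 from Venus I-VI (adjusted p = 0.145). Aard (0.49, SE 0.10) and Tsx (0.63, SE 0.13), testis genes of the list, also rose, and Shbg, the androgen-binding protein gene, fell by 1.18 (SE 0.20). These 3 genes were chosen after their values were seen, to complete the list. Aard did not pass without Venus 1, dnRARa 1 or dnRARa 2 (0.0594 to 0.126), Tsx without Venus 1, Venus 2 or dnRARa 2 (0.0832 to 0.175), and Shbg without Venus 1 (0.0597).

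Of 9 androgen-responsive Sertoli genes 3 rose, Rhox5, Tsx and the protease inhibitor gene Eppin (0.76, SE 0.12, adjusted p = 0.00247), and the tubulin gene Tubb3 fell. Eppin read 2.95 and 3.03 against 2.27 and 2.19, while Tubb3 read 0.75 and 1.03 against 2.01 and 1.997 (-1.12, SE 0.19, adjusted p = 0.00316). The list had a median of 0.37. Tubb3 lay below Venus on both arrays and the other 3 above.

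Of 17 Sertoli genes known to vary over the cycle 4 rose and 4 fell, where 3.16% and 1.53% of all genes tested did. The galectin gene Lgals1 read 2.12 and 2.74 with dnRARa and 3.60 and 3.50 with Venus (-1.12, SE 0.17, adjusted p = 0.00137), and its untreated level was higher in IX-XII (2.62) than in IV-VI (0.92). Gdnf, a growth factor that keeps spermatogonial stem cells, rose by 0.88 (SE 0.18, adjusted p = 0.0116), and the cytokine gene Il1a, at background with Venus, was at least 1.78-fold higher. Both changed sign with normexp. Gdnf lost the call without Venus 1, Venus 2 or dnRARa 2 (0.0774 to 0.141) and Il1a without Venus 1, dnRARa 1 or dnRARa 2 (0.0970 to 0.290). Inha, the inhibin alpha subunit gene, read 1.76 and 1.59 against 2.67 and 2.69 (-1.01, SE 0.20) and did not pass without Venus 1, Venus 2 or dnRARa 2 (0.0746 to 0.0996). In all, 2 of 18 signals to germ cells rose and 1 fell, with a median of -0.0075.

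Genes of junctions and proteases changed in single members. Of 15 tight junction genes Jam2 (0.69, SE 0.14) and Marveld3 (1.47, SE 0.29) rose and 0 fell by limma (2 at an unadjusted p under 0.05), with a median of -0.0010, and the second probe of Marveld3 read 0.11 and its sign turned with normexp (-0.23). Jam2 did not pass without Venus 1, Venus 2 or dnRARa 2 (0.0597 to 0.137) and Marveld3 without the same arrays (0.0696 to 0.0932). Of 19 adhesion genes the catenin gene Ctnna1 rose by 0.55 (SE 0.12), a call lost without Venus 1, Venus 2 or dnRARa 2 (0.0958 to 0.195). Of 13 proteases and inhibitors the membrane metalloprotease gene Mmp14 (1.17, SE 0.20) and the inhibitor gene Serpina5 (0.51, SE 0.11) rose and the inhibitor gene Timp3 (-1.14, SE 0.24) and Plat, the tissue plasminogen activator gene (-0.86, SE 0.21), fell. Plat, chosen after its values were seen, was raised by RA in culture by 1.35 and was higher in untreated VII-VIII and IX-XII (1.08 and -0.26) than in I-III and IV-VI (-1.38 and -1.65). Mmp14 lost the call without Venus 1 or dnRARa 2 (0.0509 to 0.0632), Timp3 without Venus 1, Venus 2 or dnRARa 1 (0.0743 to 0.109), and Serpina5 and Plat without any 1 of the 4 arrays (0.0649 to 0.135 and 0.0748 to 0.196).

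Of 24 lysosome and uptake genes 0 rose by limma (2 at an unadjusted p under 0.05) and the lipoprotein receptor gene Scarb1 fell by 0.73 (SE 0.15, adjusted p = 0.0116), and of 16 lipid droplet genes Plin5 (-1.50, SE 0.28) and the triglyceride synthase gene Dgat2 (-0.81, SE 0.16) fell. Scarb1 did not pass without any 1 of the 4 arrays (0.0566 to 0.0971), Plin5 without Venus 1, Venus 2 or dnRARa 1 (0.0546 to 0.0767), and Dgat2 without Venus 1, Venus 2 or dnRARa 2 (0.0637 to 0.116). Another probe of Dgat2 read 0.43 where the rest read -0.81 and -1.01. Of 19 cholesterol synthesis genes limma called 0 (1 higher and 2 lower at an unadjusted p under 0.05), with a median of -0.19.

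Of 12 spermatogonial genes Uchl1 fell (-0.86, SE 0.18), of 18 spermatocyte genes Sycp3 (0.74, SE 0.18) and Hormad1 (0.63, SE 0.14) rose, of 18 round spermatid genes Zpbp rose (0.48, SE 0.11), and of 15 elongating spermatid genes 0 passed in limma and 0 had an unadjusted p under 0.05. The medians were 0.18, 0.15, 0.12 and 0.20. The summed level of a marker list, the log2 of its added signals, was 8.81 and 8.74 with Venus and 8.82 and 9.06 with dnRARa for spermatocytes, 9.55 and 9.45 against 9.51 and 9.75 for round spermatids, and 10.9 and 10.78 against 10.8 and 11.23 for elongating spermatids. The arms overlapped for both spermatid lists. For the spermatocytes they nearly touched, with the nearest arrays at 8.809 (Venus) and 8.817 (dnRARa). For spermatogonia the sum was lower with dnRARa and did not overlap, at 4.89 and 4.85 with Venus and 4.32 and 4.56 with dnRARa, although the median of the list was above 0. Its part in the other results was not tested. Uchl1 lost the call without Venus 1, Venus 2 or dnRARa 1 (0.0871 to 0.132), Sycp3 and Hormad1 without Venus 1, Venus 2 or dnRARa 2 (0.172 to 0.377 and 0.0983 to 0.274), and Zpbp without any 1 of the 4 arrays (0.0953 to 0.181).

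Markers of Leydig and peritubular cells, which lie outside the epithelium, had lower values with dnRARa. All 8 tested Leydig genes were below 0, with a median of -0.75, and their summed level was 5.09 and 5.31 with Venus and 4.68 and 4.75 with dnRARa. Cyp11a1, the first enzyme of steroid synthesis, differed by -1.32 (SE 0.43, adjusted p = 0.109), and limma called 0 of the list, with 1 gene at an unadjusted p under 0.05. All 8 peritubular myoid genes were below 0 as well, with a median of -0.36, and the smooth muscle myosin gene Myh11 fell by 0.71 (SE 0.16), a call lost without any 1 of the 4 arrays (0.0619 to 0.202). The summed level was 5.84 and 5.73 against 5.63 and 5.49. Of 18 matrix genes 17 were below 0 and Col18a1 fell (-1.06, SE 0.27), a call also lost without any 1 of the arrays (0.107 to 0.267). In VII-VIII the medians of the Leydig and peritubular myoid lists were also below 0, at -1.06 and -0.46. The part of Leydig and peritubular cells in the genes that fell was not tested.

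Of 13 macrophage and immune genes Mrc1 rose (0.83, SE 0.22, adjusted p = 0.0493) and was lost without any 1 of the arrays (0.141 to 0.270) and with the scan day or the slide as a block, of 10 endothelial genes limma called 0 (3 at an unadjusted p under 0.05, 2 higher and 1 lower), and of 16 interferon genes Oasl2 fell (-1.85, SE 0.33), lost without Venus 1 or dnRARa 1 (0.0594 to 0.0650). RA raised Oasl2 in culture by 1.53. Among 4 erythroid genes Alas2, the heme synthesis enzyme gene of red cells, read 2.07 and 1.91 with dnRARa and 0.10 and 0.23 with Venus (1.83, SE 0.23, adjusted p = 0.000416), while the haemoglobin genes Hba-a1 and Hbb-bt differed by -0.39 and -0.75 (adjusted p = 0.767 and 0.671). Alas2 was also strongly staged in untreated tubules, at 1.81 in I-III and not well above background in VII-VIII.

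Of 22 cell cycle genes Ccnb1 (1.06, SE 0.16) and the mitotic kinase gene Plk1 (0.75, SE 0.17) rose. The 2 other probes of the cyclin gene Ccnb1 read 0.029 and 0.28, so its probes disagree, and Plk1 did not pass without any 1 of the 4 arrays (0.0969 to 0.201). Of 19 immediate early and heat shock genes Klf4 fell by 0.66 (SE 0.12), lost without Venus 2 or dnRARa 2 (0.0594 to 0.0696), and Fos, not well above background on either Venus array, was at least 3.06-fold higher, which did not pass (adjusted p = 0.0508) and turned to a difference of -0.36 with normexp.

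**Figure D5:**
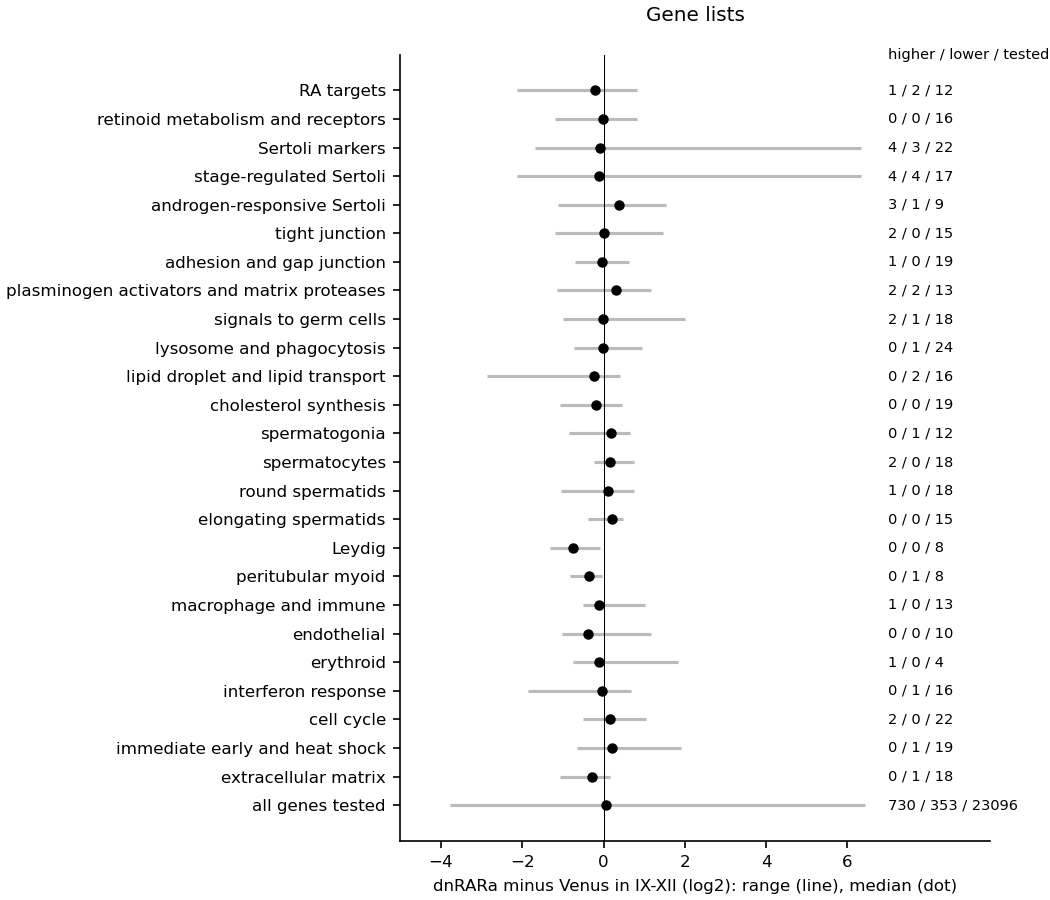
Difference between dnRARa and Venus in IX-XII (horizontal axis, log2) for 25 gene lists and all genes tested, with a line from the lowest to the highest tested member, a dot at the median, and the numbers higher, lower and tested at the right. The Leydig and peritubular myoid lists lie wholly below 0, and the Sertoli marker list reaches from -1.69 for Gata1 to 6.34 for Aqp8.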

How the data were processed

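Each of the 34 one-colour Agilent arrays held the RNA of 1 sample, labelled with Cy3 from 0.2 µg of total RNA per the labels. The deposited values are intensity: the authors extracted spots with Agilent Feature Extraction (9.5 per the submitters' processing notes), and the deposited series values equal the processed signal of the scanner files. No scaling between arrays by the authors was found. From the processed signal, the log2 value minus the 75th percentile of the array was computed here.

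Of 43379 spots that were not controls, replicate spots were averaged into 41174 probes. RefSeq gave names to 22951 probes through accessions and to 67 through symbols or synonyms, and 18156 kept the identifier of the file. The brightest probe stood for a gene. Tested genes had both arrays of some compared group well above background. Linear models of the limma package (3.58.1, run under R 4.3.3, tables read by the data.table package in release 1.17.8) fitted 24 tubule arrays in 12 groups with no block, and the 10 testis and Sertoli cell arrays in another model. Tests were two-sided with Benjamini-Hochberg adjustment and a threshold of 0.05, and the code was tested on simulated data. With 2 arrays per group, their number limits the precision. The standard deviation over genes of replicate 1 minus replicate 2 was 0.274 for Venus and 0.333 for dnRARa in IX-XII. It was 0.526 to 0.714 for the untreated groups, which enter the same estimate of spread. Replicate numbers share a scan day, and the main model did not pair them. Deviations from the group means correlated at 0.00087 in IX-XII between the arms, while a replicate block gave 1476 genes in place of 1083. These values do not settle whether the samples are paired.

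A bound ("at least") sets the mean of the brighter group against the lowest signal well above background, or the probe's own if higher. Named genes were fixed RA and Sertoli genes, the 12 largest rises and 12 largest falls with the same sign in both pairs, up to 3 genes of the smallest p per list, and those of smallest p that also passed in untreated tubules or with RA. The members, lists and tests were chosen with earlier results of these data known. Alternatives were quantile, median and normexp scaling (offset 50), no detection filter, averaged probes, other sets of arrays, an intensity trend, blocks, and leaving out each array. The values of 1 gene among the RA targets are not reported here.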

Additional observations from a re-analysis of the deposited data

Results flagged for a closer look

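Named genes whose dnRARa effect differed between stage groups in limma, each tested by the difference of effects over all genes, are given with that difference in log2 units. The effect in IX-XII was higher than the mean effect in I-III and IV-VI for Aqp8 (6.08), Mical2 (5.00), Ptpn7 (4.36), Gsta1 (3.37), Gsta2 (3.37), Ssxb2 (3.22), Ssxb1 (3.13), Slc16a4 (3.12) and Alas2 (2.48). The smaller positive differences were those of Dpysl4 (2.14), Arhgap31 (2.05), Nudt11 (1.91), Marveld3 (1.67), Ccnb1 (1.27), Cdo1 (1.22), Maged2 (1.09), Rhox5 (1.08), Plk1 (1.07), Mmp14 (1.03), Ptk2b (0.96) and Jam2 (0.71). It was lower for Olfr340 (-4.37), Runx2 (-2.52), Ahsg (-2.17), Anxa9 (-1.98), Gata1 (-1.48), Plat (-1.45), Osbpl5 (-1.21), Grin2c (-1.21), Pygl (-1.17), Dgat2 (-1.12), Pex26 (-0.99), Hspa1a (-0.86) and Klf4 (-0.76). Runx2 differed by only -0.73 in IX-XII itself. Another of its probes, well above background on 3 of the 4 arrays, read -0.50. Those that read -0.17 and 0.80 were well above background on 0 of the 4. With dnRARa Runx2 was higher in I-III (-3.33 and -4.10 against -5.16 and -5.26 with Venus) and in IV-VI (-1.72 and -1.70 against -3.97 and -3.61).

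Against the effect in VII-VIII, the effect in IX-XII was higher for Aqp8 (5.26), Mical2 (4.13), Ssxb2 (3.95), Ssxb1 (3.78), Ptpn7 (3.65), Gsta2 (3.22), Gsta1 (3.06), Slc16a4 (2.85), Alas2 (2.16), Dpysl4 (2.12), Arhgap31 (1.62) and Ccnb1 (1.18). It was lower for Olfr340 (-4.69). For Ntf3, Elovl3, Fam110c, Nudt10 and Fabp1 neither Venus array of IX-XII was well above background, and for Plekhs1 neither dnRARa array was. Their fitted differences against I-VI of 3.20, 2.94, 2.90, 2.81, 2.25 and -2.36, in that order, therefore rest on background signals, have no order of size and are no measured sizes. The same holds against VII-VIII for Fam110c (3.38) and Fabp1 (2.26). Among the tubule groups, Olfr340 exceeded background on each of 2 arrays only for Venus in IX-XII. Normexp correction left fewer genes with such differences, as given under the processing settings.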

How the results depend on the processing

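Quantile normalization (1013 genes), median scaling (946), a filter that asks for detection in every group compared (980), the mean of probes (1101), the 4 arrays alone (1014), an intensity trend (1223), a scan day block (1282) and a random slide block (1066) stayed within 1.5 times the 1083 genes that passed. A like count did not mean the same genes: the 4 arrays alone called 587 of the 1083, the mean of probes 969, quantile normalization 933 and median scaling 900. The replicate block gave 1476 genes, 997 higher and 479 lower, of which 1082 were among the 1083. With normexp correction 265 passed, 136 higher and 129 lower, with 96 of the higher also higher in untreated I-VI, 81 of the lower also lower there and 46 of the lower raised by RA, while 72 genes passed for the effect in IX-XII against I-VI and 10 against VII-VIII. With no detection filter, which tests more genes, 717 passed, 216 of them lower and 126 of these lower in untreated I-VI, with 223 and 41 genes for the effects against I-VI and VII-VIII. With the 16 virus arrays alone 2138 passed (1308 higher, 830 lower, and 579, 377 and 129 for the untreated and RA matches), with 1414 and 178 for the effects. A fixed slide block, added after seeing the data, gave 2927 and 402 for them, and leaving out dnRARa replicate 2 of IV-VI, also added, gave 211 for the first. The model of the 4 arrays alone was not run for effects across stages. Leaving out 1 array gave 316 to 624 genes, 216 to 502 higher and 74 to 142 lower, with 142 to 231, 54 to 99 and 26 to 56 for the matches with untreated I-VI and RA, and 96 to 211 and 23 to 50 for the effects. With normexp the differences of Rara (-0.22), Rarb (-0.71), Slc35f4 (-0.016), Nudt10 (-0.058), Ntf3 (-0.39), Marveld3 (-0.23), Marveld2 (-0.39), Gdnf (-0.55), Il1a (-0.60), Cdh5 (-0.036), Kdr (-0.38), Fos (-0.36) and Fabp1 (-0.17) changed sign. That of Cldn11 ranged from -0.039 without dnRARa replicate 2 to 0.27 without dnRARa replicate 1. The cause was not tested. Calls of named genes were lost with quantile normalization for Sowahd, Slc35f4, Drp2, Rec8, Serpina5 and Gdnf, with median scaling for Rec8, Sycp3, Zpbp and Mrc1, and with the scan day or random slide block for Tgm2 and Mrc1. The 4 arrays alone lost Plekhs1, Rec8, Lgals1, Jam2, Ctnna1, Serpina5, Il1a, Plin5, Uchl1, Hormad1, Sycp3, Zpbp, Myh11, Septin6, Nr0b1, Shbg, Aard, Tsx and Plat. Of 1940 values of named genes under the alternatives, 1684 kept direction and call, 192 lost the call, 50 gained it and 14 changed sign. Low signal over background limits the bounds given for genes at background in Venus tubules.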

Other observations

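Sowahd, an ankyrin repeat gene, had a dnRARa difference in IX-XII of -1.91 (SE 0.48, adjusted p = 0.0357). In IV-VI it was not well above background on either dnRARa array and was at least 15.7-fold lower than with Venus, and in VII-VIII it was above background on 1 of the 2 dnRARa arrays. It read -1.35 and -0.74 with dnRARa and 0.88 and 0.85 with Venus in IX-XII, so the arms did not overlap there. Its call in IX-XII was lost without any 1 of the 4 arrays (limma adjusted p = 0.0985 to 0.199). Cidea, a lipid droplet protein gene that RA raised by 4.40 in culture, read -0.07 and 1.07 with dnRARa and 3.38 and 3.35 with Venus (-2.87, SE 0.90), which did not pass (limma adjusted p = 0.0938).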
